A study of Mus musculus with 8 samples.

Results

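Lipid uptake and lipid-associated macrophage genes were examined in immune cells of diabetic and control mouse wounds. The genes were Trem2, Cd36, Lpl, Lipa, Fabp4, Fabp5, Abca1, Apoe, Gpnmb and Spp1, which were taken by name, and all 10 were found among the 21742 genes of the count tables. They were chosen with earlier results of these data known, so that shares of all genes are no independent reference for their counts. CD45+ cells were sorted from skin wounds of male C57BL/6J mice (C57BL/6 in the labels) and sequenced as single cells. Diabetic mice had received streptozotocin (STZ, a toxin of the insulin-producing beta cells) at 120 mg/kg when 4 weeks old, and the other group was labelled as control wound. Sampling took place on day 1, 3, 5 or 7 after wounding. Each of the 8 libraries, 1 for a group and day, was a pool from 5 mice. No difference on a single day can therefore be tested, and intervals of a day cover counting error only. P-values over the 4 days rest on how the group difference varies between days or, for slopes, on departures from a line. Spread between pools of the same group and day cannot be told apart from these.

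Macrophages of a wound engulf dying cells and take up large amounts of lipid. The lipid is captured by surface receptors, split in the lysosome, carried or stored in the cytosol, and exported as cholesterol to apolipoproteins. Macrophages that have taken up much lipid in fat tissue, arteries and brain are known to share a set of genes with Trem2, Gpnmb, Lpl and Spp1 among them, and are often called lipid-associated macrophages.

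The genes lie on 8 chromosomes of GRCm38. Trem2 lies at chr17:48346401-48354147, Cd36 at chr5:17781690-17888801, Lpl at chr8:68880491-68907448, Lipa at chr19:34492318-34527474 and Fabp4 at chr3:10204088-10208576. Fabp5 lies at chr3:10012548-10016607, Abca1 at chr4:53030787-53159895, Apoe at chr7:19696109-19699188, Gpnmb at chr6:49036546-49070929 and Spp1 at chr5:104435118-104441050. Promoters of 7 of the 10 genes were matched in RefSeq on GRCm38.p6, and the 250 bases before the start were searched on both strands for AGGTCA, the hexamer bound by lipid-sensing nuclear receptors, CACGTG, the E-box of the lysosomal regulator TFEB and other factors, and GAGGAAGT, a motif of the myeloid factor PU.1. The ends of these motifs can overlap each other, and each was searched on its own. AGGTCA or its reverse complement TGACCT was found before Trem2 and Cd36 and in 14.02% of all 32851 promoters, CACGTG before Abca1 and in 6.02%, and GAGGAAGT before an Spp1 start and in 2.44%. The Cd36 window lies within the span of the gene given above and precedes an internal start. The windows of Trem2 (chr17:48346151-48346400, plus strand), Cd36 (chr5:17835897-17836146, minus strand) and Abca1 (chr4:53159896-53160145, minus strand) are shown since these are the uptake and export genes that hold a match, which is written in capitals. A match describes the letters and not a binding site.
Trem2: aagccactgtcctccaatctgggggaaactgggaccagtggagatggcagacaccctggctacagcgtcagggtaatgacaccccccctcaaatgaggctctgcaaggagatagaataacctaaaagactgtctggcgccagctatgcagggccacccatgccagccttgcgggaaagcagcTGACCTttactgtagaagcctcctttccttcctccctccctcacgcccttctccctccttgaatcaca
Cd36: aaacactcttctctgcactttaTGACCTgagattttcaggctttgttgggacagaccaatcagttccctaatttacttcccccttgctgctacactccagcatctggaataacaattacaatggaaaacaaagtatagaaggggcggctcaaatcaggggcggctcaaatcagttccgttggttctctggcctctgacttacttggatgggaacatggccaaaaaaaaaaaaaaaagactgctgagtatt
Abca1: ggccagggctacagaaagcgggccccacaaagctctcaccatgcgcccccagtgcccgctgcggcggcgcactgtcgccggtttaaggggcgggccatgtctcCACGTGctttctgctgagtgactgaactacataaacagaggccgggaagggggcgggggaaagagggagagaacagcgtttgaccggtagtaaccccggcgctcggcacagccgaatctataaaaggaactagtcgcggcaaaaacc

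After filtering, 35158 of 38959 barcodes were kept as cells. Each library held 3266 to 5436 of these cells, and 19236522 to 33842509 UMIs over all its barcodes before filtering. Ptprc, the gene of CD45, was present in every library at 532 to 922 UMIs per 1000000 UMIs (CPM). Control day 5 stood apart, with a median of 8234 UMIs per cell against 2575 to 5219 in the other 7 libraries and with 28.6% of its barcodes removed against 1.00% to 10.8%, and 27.1% of its barcodes had a high mitochondrial share against 1.00% to 5.50%. Cells were clustered without the 10 genes and without related lipid genes, and 19 clusters were named by likeness to marker genes, of which 1 with 3441 cells stayed unnamed. Of the cells kept, 7137 were macrophage-like, 358 osteoclast-like, 4537 monocyte-like, 13710 neutrophil-like, 2777 dendritic-like and 2450 T cell-like. T cells should lack most of these genes, and their level is given as a measure of RNA from other cells, in which free RNA and doublets cannot be told apart.

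The macrophage-like class held 162, 911, 425 and 944 cells in diabetic wounds on days 1, 3, 5 and 7, and 156, 689, 1512 and 2338 in control wounds. Levels below are CPM over the UMIs of the same cells. Trem2, Lpl, Cd36 and Lipa had lower levels in the diabetic library of each of the 4 days, Cd36 on day 3 by less than counting error, while Apoe, an export gene, was higher on day 1 and lower on day 5. With edgeR and the filter on low counts none of the 10 genes passed the test over the 4 days, while Lipa and Trem2 did with DESeq2 and 6 did with edgeR without the filter. Both of these settings called many more genes in all than edgeR with the filter, and the cause was not tested.

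Trem2, a receptor for lipids and apolipoproteins, stood at 79.1, 419.8, 408 and 489.8 CPM in diabetic and at 182, 583, 784 and 599 CPM in control macrophage-like cells on days 1, 3, 5 and 7. It was lower in the diabetic library of each day, by 2.31-fold (95% interval 1.68 to 3.20) on day 1, 1.39-fold (1.32 to 1.46) on day 3, 1.92-fold (1.82 to 2.02) on day 5 and 1.22-fold (1.18 to 1.27) on day 7. Cd36, a scavenger receptor that also brings fatty acids into the cell, stood at 268, 256, 404 and 714 CPM in diabetic and at 692, 260.1, 1162 and 794 CPM in control cells. The groups differed 2.58-fold (2.18 to 3.06) on day 1 and 2.87-fold (2.73 to 3.03) on day 5, with the diabetic library lower, but on day 3 the interval of the ratio held 1. In control day 1, 2 cells held 201 of the 527 Cd36 UMIs. Without the top 2 cells of each library the day 1 levels of Cd36 were 203 CPM in diabetic and 442 CPM in control cells.

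Lpl, the lipoprotein lipase that frees fatty acids from triglycerides, stood at 75.0, 232, 292 and 548 CPM in diabetic and at 862, 347, 769 and 767 CPM in control macrophage-like cells. Every diabetic value was below the control value of its day, by 11.5-fold (8.71 to 15.5) on day 1, 1.49-fold (1.40 to 1.59) on day 3, 2.64-fold (2.48 to 2.80) on day 5 and 1.40-fold (1.35 to 1.45) on day 7. The difference on day 1 rested on few cells. The 657 Lpl UMIs of control day 1 came from 37 of 156 cells, of which the top pair held 259 and 139. Without the top pair of each library the levels of day 1 were 41.4 CPM in diabetic and 353 CPM in control cells. Lipa, the lysosomal acid lipase that splits cholesteryl esters, stood at 88.8, 319, 379.6 and 556 CPM in diabetic and at 261, 433, 941 and 754 CPM in control cells. It was lower in the diabetic library on all 4 days, by 2.94-fold (2.21 to 3.96), 1.36-fold (1.28 to 1.44), 2.48-fold (2.35 to 2.62) and 1.36-fold (1.31 to 1.41).

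Fabp4 and Fabp5 encode cytosolic carriers of fatty acids. Fabp4 was sparse, with 15.3, 25.4, 13.2 and 48.1 CPM in diabetic and 10.5, 14.3, 46.3 and 56.7 CPM in control macrophage-like cells, from 11 and 8 UMIs on day 1. The order of the groups changed between days, since Fabp4 was 1.78 times the control level (1.36 to 2.34) in diabetic cells on day 3 and 3.51-fold (2.64 to 4.75) lower on day 5. Fabp5 stood at 109.7, 412, 262 and 507 CPM in diabetic and at 229.6, 395, 792 and 417 CPM in control cells. It was lower in diabetic cells on days 1 and 5, by 2.09-fold (1.597 to 2.77) and 3.03-fold (2.84 to 3.23), and on day 7 it was 1.21 times the control level (1.17 to 1.26). The fat cell markers Adipoq, Plin1, Cidec, Lep and Cfd, all 5 of them detected in some library, summed to 0.517 to 2.78 CPM in diabetic and to 0.934 to 1.74 CPM in control macrophage-like cells.

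Abca1, the transporter that passes cholesterol to apolipoproteins, stood at 307, 691, 729 and 797 CPM in diabetic and at 299, 560.0, 803 and 766 CPM in control macrophage-like cells. The ratio of diabetic to control stayed between 0.908 (0.871 to 0.945) on day 5 and 1.23 (1.18 to 1.29) on day 3. Apoe, a secreted apolipoprotein that accepts this cholesterol, stood at 2213, 7065, 6792 and 9230.0 CPM in diabetic and at 1428, 7579, 10641 and 9988 CPM in control cells. Apoe was higher in diabetic cells on day 1, at 1.55 times the control level (1.43 to 1.68), and lower on day 5, at 0.638 (0.630 to 0.647).

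Gpnmb, a glycoprotein of endosomes and lysosomes in phagocytes, stood at 37.5, 629, 317 and 517 CPM in diabetic and at 56.4, 351, 904 and 558 CPM in control macrophage-like cells. The diabetic library was the higher on day 3, at 1.79 times the control level (1.70 to 1.89), and the lower on day 5, by 2.85-fold (2.69 to 3.03). Spp1, the secreted protein osteopontin, stood at 547, 1026, 922 and 843 CPM in diabetic and at 933, 988, 1978 and 1054 CPM in control cells. Spp1 was 1.71-fold (1.51 to 1.93) lower in diabetic cells on day 1 and 2.15-fold (2.07 to 2.22) lower on day 5. The size of the day 1 difference rested on few cells, as 2 cells of diabetic day 1 held 174 of its 394 Spp1 UMIs. Without the top 2 cells of each library the day 1 levels were 312 CPM in diabetic and 783 CPM in control cells.

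**Figure D1:**
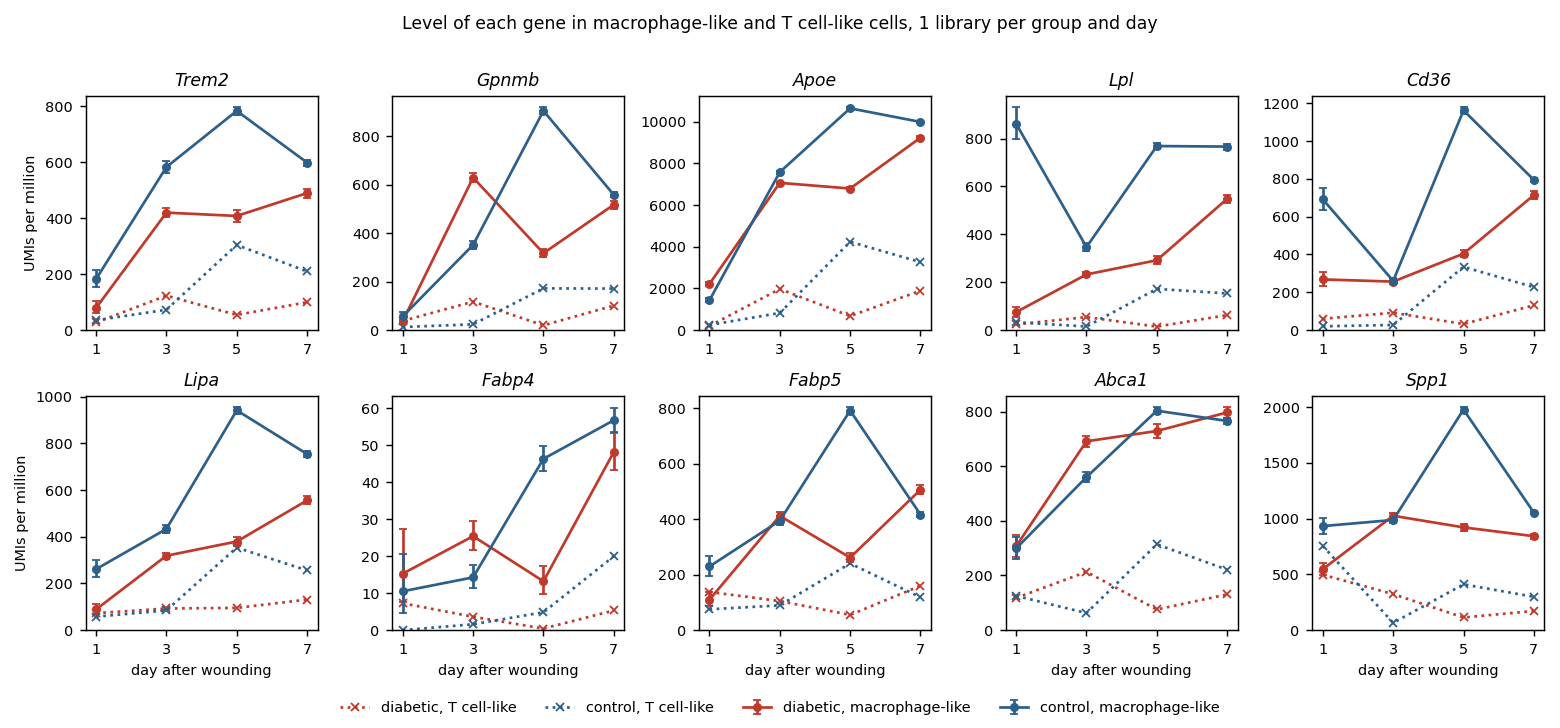
Level of each gene in CPM against the day, with solid lines for macrophage-like and dotted lines for T cell-like cells, red for diabetic and blue for control libraries, and bars for 95% Poisson intervals. Trem2, Lpl, Cd36 and Lipa lie lower in diabetic macrophage-like cells on all 4 days, and the T cell-like level is highest in control day 5 for Apoe, at 4235 CPM.

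T cell-like cells held 194 to 4235 CPM of Apoe, 27.2 to 304 CPM of Trem2, 14.5 to 172 CPM of Lpl and 57.7 to 354 CPM of Lipa. The complement genes C1qa, C1qb and C1qc, which mark macrophages, summed to 160.4 to 3056 CPM in the same cells, and all of these levels were highest in control day 5. When the T cell-like level of each library was subtracted from the macrophage-like level, Lpl and Lipa were still lower in diabetic cells on all 4 days, at log2 ratios of -4.01, -0.90, -1.11 and -0.34 for Lpl. For Trem2 the log2 ratios became -1.50, -0.78, -0.44 and 0.0045, and that of Cd36 was 0.038 on day 7. T cell-like cells held fewer UMIs per cell, so that subtracting their CPM in full can take away too much. When their UMIs per cell were subtracted instead, an alternative chosen after seeing the data, the log2 ratios were -1.63, -0.65, -0.71 and -0.15 for Trem2 and -1.73, -0.29, -1.34 and -0.064 for Cd36.

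Differences of at least 2-fold were found on days 1 and 5. As the 10 genes were chosen with earlier results of these data known, the shares of all genes are given for scale only. On day 1, 5 of the 9 genes with at least 50 UMIs over both libraries were at least 2-fold lower in diabetic macrophage-like cells (Trem2, Lpl, Cd36, Lipa and Fabp5), where 1.77% of the 4177 genes tested were. On day 5, 7 of 10 were (Gpnmb, Lpl, Cd36, Lipa, Fabp4, Fabp5 and Spp1), against 7.22% of 9886 genes, in a comparison with the control day 5 library that stood apart in depth and in barcodes removed. On days 3 and 7 this held for 0 of 10, against 1.76% and 1.96%, and on no day was any of them 2-fold higher, against 1.92%, 2.71%, 3.54% and 1.95% of all genes on days 1, 3, 5 and 7. With other choices of cells 1 gene was, Apoe on day 1 with the 10 genes used in clustering (3.51% of all genes) and with cells named singly (1.51%), and Fabp4 on day 3 with cells named singly (2.89%). The median log2 ratio of the genes was -1.07, 0.016, -1.35 and -0.20 on days 1, 3, 5 and 7, and that of all genes tested was -0.0090, -0.0099, -0.061 and -0.020. Trem2, Lpl, Cd36 and Lipa were lower in the diabetic library on all 4 days, 4 of 9 genes against 12.6% of all genes, although on day 7 Cd36 was higher in the diabetic library with cells named singly, at a log2 ratio of 0.056.

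The size of the day 5 difference depended on which cells were called macrophage-like. With the 10 genes and the lipid genes allowed into the clustering, the class of diabetic day 5 shrank from 425 to 209 cells, and 1 of 10 genes (Fabp4) stayed past 2-fold, against 5.71% of all genes with these cells. With each cell named singly by its markers, 286 cells of diabetic day 5 were in the class and 0 of 10 genes were past 2-fold, against 5.24% of all genes, while 9 of 10 were still lower, against 54.6%. The count was 8 of 10 with finer clusters (7.83% of all genes), where the class took in a cluster of 1915 cells with 0 macrophage markers and 1 monocyte marker among its top 10 genes. It was 7 of 10 with cells of at least 500 genes (7.26%) and with the unnamed cluster included (6.71%), and 6 of 10 with osteoclast-like cells included (10.6%). On day 1 the count was 6 of 8 with the 10 genes used in clustering, against 3.65%, 2 of 9 with cells named singly, against 2.50% of all genes, and 2 of 10 with finer clusters, against 1.58%. Markers of other cells moved with the day as well. In macrophage-like cells of diabetic and control day 5, the 11 macrophage markers summed to 9728 and 16508 CPM, the 10 dendritic markers to 18314 and 7363 CPM, the 6 monocyte markers to 2289.7 and 783 CPM and the 7 neutrophil markers to 1457 and 272 CPM. The 6 markers of a resident macrophage subset summed to 596 and 2029.8 CPM, and the 7 osteoclast markers to 449 and 1029 CPM. All of these markers but the osteoclast gene Calcr were detected, and their part in the difference was not tested.

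**Figure D2:**
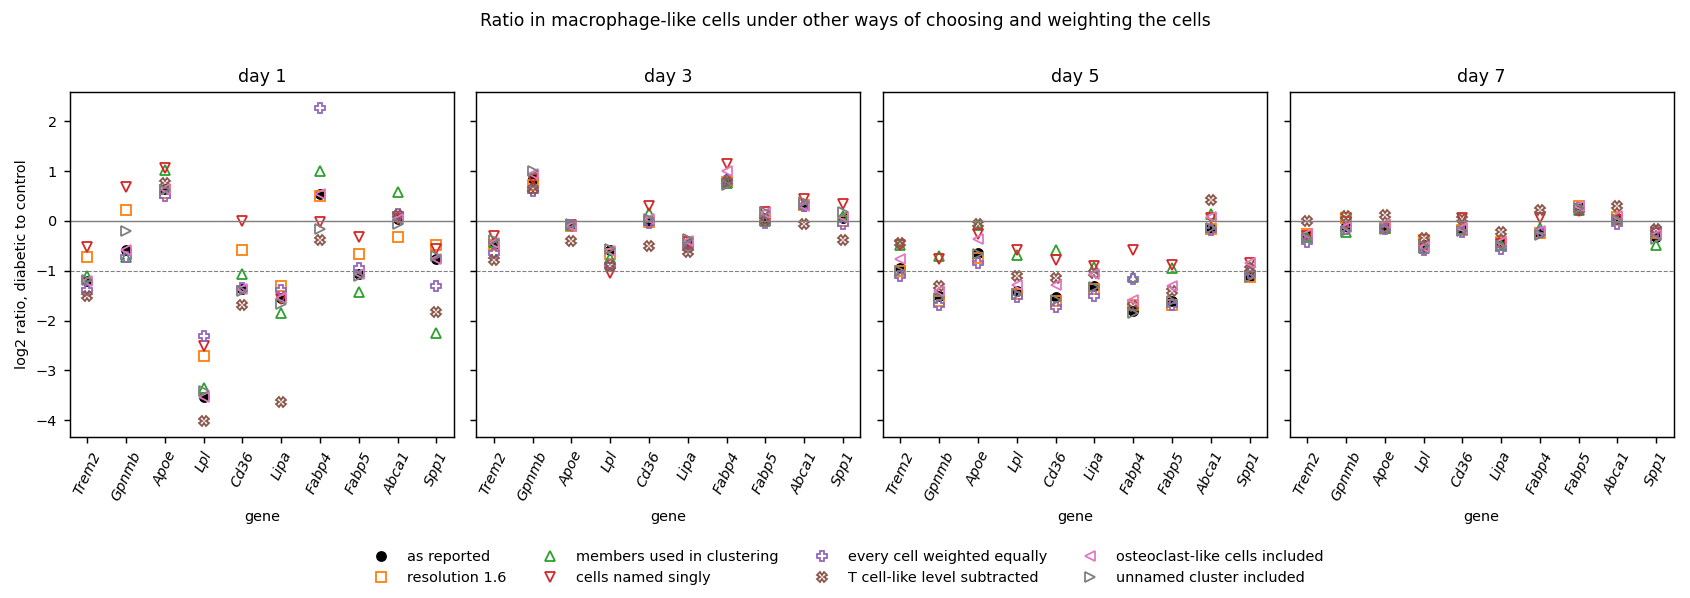
Log2 ratio of diabetic to control in macrophage-like cells for each gene, with 1 panel for each day and 1 symbol for each way of choosing or weighting the cells, the dashed line marking a 2-fold lower level. On day 5 most black points of the reported values lie below the dashed line and the points for cells named singly lie above it.

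Over the 4 days, with day as a block, edgeR's quasi-likelihood test called 0 of the 10 genes at an adjusted p below 0.05 in macrophage-like cells, where it called 0.00954% of 10486 genes higher (1 gene, Chil3) and 0% lower in diabetic wounds. Of the 10 genes, 5 had an unadjusted p below 0.05, all of them lower, where 5.09% of all genes were lower at that level. Lipa had a log2 fold change of -0.87 (SE 0.19, adjusted p = 0.241) and Trem2 of -0.67 (SE 0.15, adjusted p = 0.241). Lpl followed at -1.33 (SE 0.41, adjusted p = 0.325), Cd36 at -0.73 (SE 0.25, adjusted p = 0.335) and Spp1 at -0.51 (SE 0.17, adjusted p = 0.335). These are the receptor genes, the lipases and osteopontin. The others were Fabp5 at -0.52 (SE 0.29), Fabp4 at -0.28 (SE 0.37), Gpnmb at -0.28 (SE 0.33), Apoe at -0.04 (SE 0.18) and Abca1 at 0.09 (SE 0.11), with adjusted p of 0.517 to 0.957. The median of the 10 genes was -0.52 and that of all genes tested -0.0078. Without day 5, the day of the library that stood apart, Lipa stood at -0.71, Trem2 at -0.57 and Lpl at -1.28, with 0 of 10 genes called, and without day 1 Lpl stood at -0.80. With DESeq2, which called 106 genes, Lipa (adjusted p = 0.00947) and Trem2 (adjusted p = 0.0202) passed the threshold, and without the filter on low counts edgeR called 372 genes and 6 of the 10 passed (Lpl, Lipa, Cd36, Trem2, Spp1 and Fabp5). Over all 17 settings the adjusted p ran from 1.18e-08 to 0.995 for Lipa, from 5.90e-05 to 0.995 for Trem2 and from 1.38e-19 to 0.890 for Lpl.

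**Figure D3:**
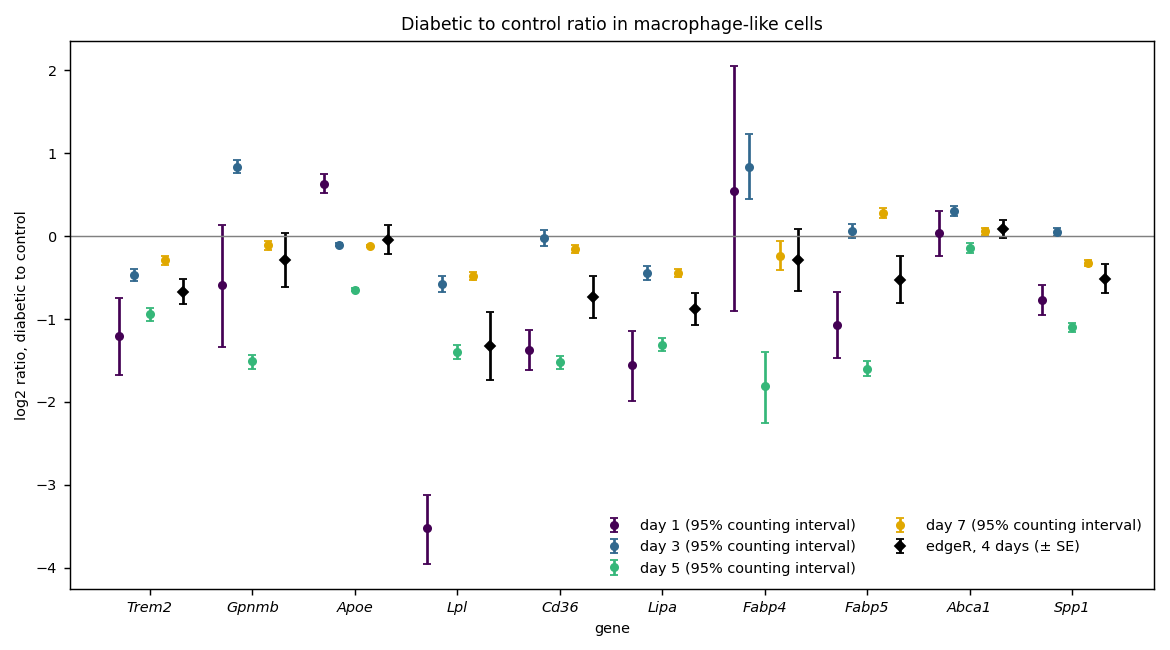
Log2 ratio of diabetic to control in macrophage-like cells by gene, with coloured points for the 4 days and their 95% counting intervals, and black diamonds for the edgeR estimate over the 4 days ± SE. Lpl on day 1 lies lowest, at -3.52, and the estimates of Abca1 and Apoe lie within 0.1 of 0.

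With a linear term in day, the slopes of all 10 genes were above 0, and 9 of them had an unadjusted p below 0.05, where 7.04% of all genes did with a slope above 0. The test called 1 of 10, against 0.353% of all genes called higher and 0.0191% called lower. Lipa rose by a log2 of 0.34 per day (SE 0.061, edgeR adjusted p = 0.0459), but without day 1, when the class was smallest, its slope was 0.20 (adjusted p = 0.515). The other slopes ran from 0.09 (SE 0.058, edgeR adjusted p = 0.567) for Spp1 to 0.41 (SE 0.17, adjusted p = 0.312) for Gpnmb. Those of Apoe and Abca1 were 0.35 (SE 0.090, edgeR adjusted p = 0.123) and 0.22 (SE 0.048, adjusted p = 0.0787). With each day left out, the slope of Apoe ran from 0.093 to 0.57 and that of Abca1 from 0.076 to 0.34. The macrophage-like class also changed its makeup. In both groups cluster 4 held most of it on days 1, 3 and 5 and cluster 5 on day 7. In its cells the 7 neutrophil markers summed to 3377 and 3093 CPM on day 1 in diabetic and control libraries. On day 7 they summed to 1149 and 1496 CPM. The 11 macrophage markers summed to 8633 and 10894 CPM on day 1 and to 12599 and 12974 CPM on day 7. Median depth was 3649.5 and 2930.5 UMIs per cell on day 1 and 7763 and 7770.5 on day 7. The part of these in the slopes was not tested. The difference in slope between the groups was tested as well. The edgeR interaction test called 0 genes in all, with 181 at an unadjusted p below 0.05, and gave Lpl a slope higher in diabetic wounds by 0.41 (SE 0.12, adjusted p = 1.00), which was 0.029 without day 1.

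Within the macrophage-like class, Gpnmb, Spp1 and Fabp5 were lowest in cluster 11. Cluster 4 was led by Ms4a7, Fcrls and Selenop, cluster 5 by Igf1 and Gdf15, and cluster 11 by Ccl8, Retnla, Lyve1 and Cd163, the latter pair known from resident macrophages around vessels. Cells had been placed in clusters by other genes of the same cells, so that these values are a description. In the 6 libraries with at least 20 cells of both, Gpnmb was lower in cluster 11 than in cluster 4 in 6 of 6, at 8.30 to 222 CPM against 334 to 1022 CPM. Spp1 was lower in 6 of 6 as well, at 110.1 to 540 CPM against 859 to 2222 CPM, and so was Fabp5, at 91.4 to 192 CPM against 273 to 896 CPM. Apoe went the other way and was higher in cluster 11 in 6 of 6, by a median of 1.20-fold, at 7912 to 13079 CPM against 6597 to 10408 CPM. Cd36 had no common direction, being higher in 2 and lower in 2 of the 6 libraries beyond counting error. From cluster 4 to cluster 5 the median fold changes lay between 0.705 for Lpl and 1.44 for Fabp4.

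Among the other classes, several of the genes were higher than in macrophage-like cells. Only Trem2 and Apoe were highest in macrophage-like cells in 8 of 8 libraries, and Lipa in 7. Lpl was highest in osteoclast-like cells in all 4 libraries with at least 20 of them, at 714 CPM in diabetic day 3 and at 1254, 930 and 1379 CPM in control days 3, 5 and 7. These cells were led by Ctsk, Atp6v0d2 and Acp5, genes of bone-resorbing osteoclasts. Their Lpl level was above the macrophage-like level of the same library beyond counting error in 4 of 4, while their Apoe level was lower than there by 3.17-fold to 11.1-fold and their Abca1 level by 2.17-fold to 3.51-fold. They were few, with 42 cells in diabetic day 3, 35, 238 and 33 in control days 3, 5 and 7, and 0 to 9 in the other 4 libraries.

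Fabp5 was highest in dendritic-like cells in 6 of 8 libraries. Within this class it was higher in cluster 14, a set of 457 cells. Cluster 14 was led by Fscn1, Ccl22 and Ccr7, genes of dendritic cells that migrate to lymph nodes. Fabp5 stood there at 2765, 1895, 2597 and 1860 CPM in diabetic and at 3976, 2399, 1743 and 1306 CPM in control wounds on days 1, 3, 5 and 7. In the other dendritic-like cluster, number 6, it stood at 89.6 to 312 CPM, so that the ranges of both clusters did not overlap over the 8 libraries. The T cell-like range of Fabp5 was 55.1 to 241 CPM. Cluster 14 held little of the lipases and of Trem2, with 0 to 115 CPM of Lpl and 0 to 102 CPM of Trem2.

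**Figure D4:**
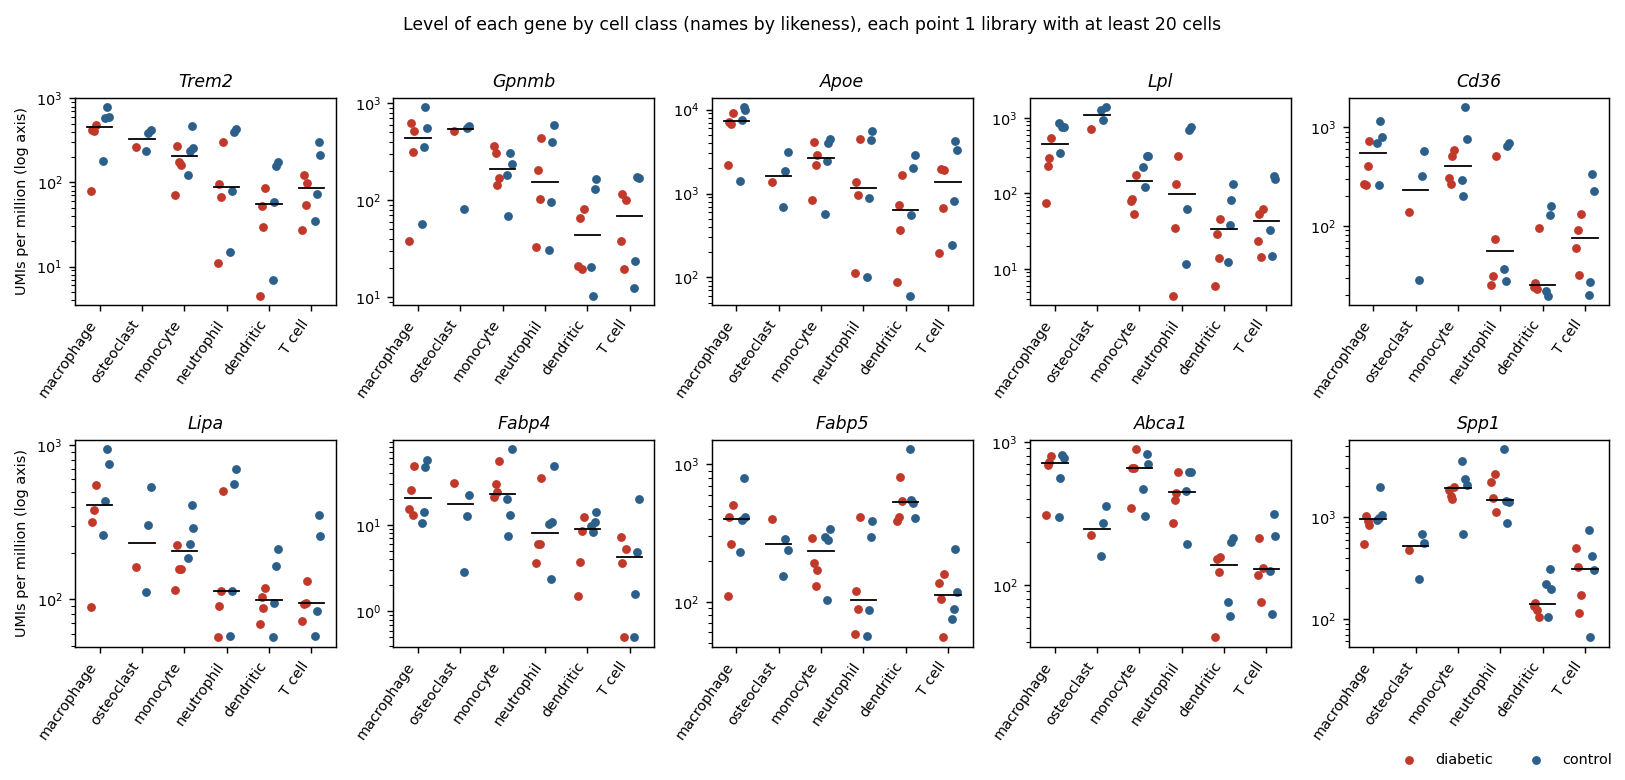
Level of each gene in CPM on a log axis by cell class, with red points for diabetic and blue points for control libraries of at least 20 cells of the class, and a bar for the median; a level below 0.5 is drawn at 0.5. Lpl lies highest in osteoclast-like, Fabp5 in dendritic-like and Spp1 in monocyte-like and neutrophil-like cells.

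Spp1 was highest in monocyte-like cells in 4 libraries and in neutrophil-like cells in the other 4, and was above the macrophage-like level in 7 of 8 libraries in each of these classes. In monocyte-like cells it stood at 1830.2, 1613, 1512 and 1993 CPM in diabetic and at 3516, 688, 2389 and 2078 CPM in control wounds. In neutrophil-like cells it stood at 2196, 1536, 2622 and 1118 CPM in diabetic and at 4633, 1423, 870.2 and 1410.1 CPM in control wounds. The neutrophil-like level was largest in cluster 3, which was led by the inflammatory genes Il23a, Il1a, Tnf and Ccl3. In the 7 libraries with at least 20 of its cells Spp1 reached 1969 to 8501 CPM in this cluster. In neutrophil cluster 0 of these libraries it stood at 903 to 2151 CPM. The neutrophil-like class held different clusters in each group. Cluster 3 gave 514 of 2446 diabetic and 1047 of 2645 control cells on day 1. On day 5 it gave 705 of 1911 and 12 of 263. T cell-like cells held 65.6 to 755 CPM of Spp1, with the highest value in control day 1, where neutrophil-like cells made up 59.95% of the library.

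Abca1 and Cd36 were shared between monocyte-like and macrophage-like cells. Each was highest in macrophage-like cells in 4 libraries and in monocyte-like cells in the other 4, and the median ratio of the levels was 1.02 for Abca1 and 1.01 for Cd36. Abca1 was not restricted to these classes. It stood at 194 to 619 CPM in neutrophil-like cells, against 299 to 803 CPM in macrophage-like and 62.5 to 314 CPM in T cell-like cells. Gpnmb was higher in monocyte-like than in macrophage-like cells on day 1, at 362 against 37.5 CPM in diabetic and at 183 against 56.4 CPM in control wounds, and lower there in the other 6 libraries. Neutrophil-like cells held 100.3 to 5487 CPM of Apoe, with the lowest level in control day 1 and the highest in control day 7, and C1qa, C1qb and C1qc, which are not neutrophil genes, summed to 187 and 3737 CPM in these cells of the same libraries. The ratio of Apoe to these genes was 0.536 to 1.78 in neutrophil-like, 0.611 to 1.87 in T cell-like and 0.340 to 1.65 in macrophage-like cells.

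**Figure D5:**
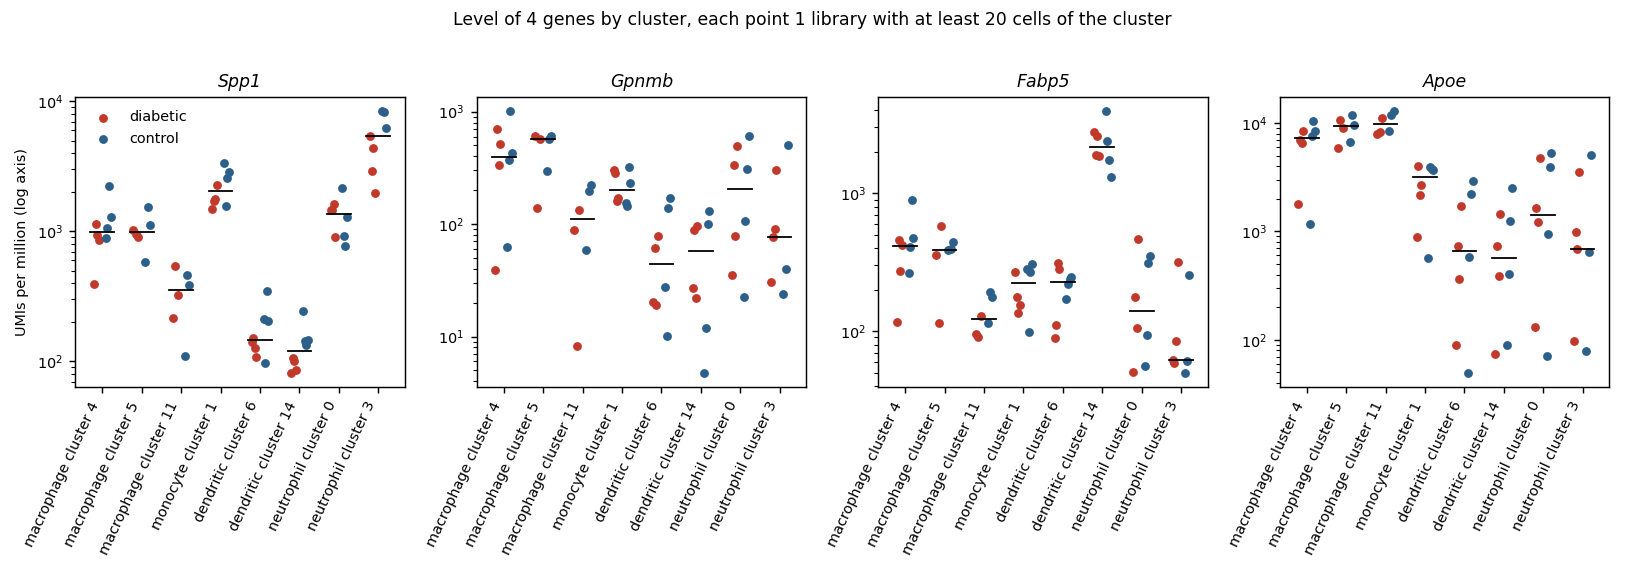
Level of Spp1, Gpnmb, Fabp5 and Apoe in CPM on a log axis in 8 clusters, with red points for diabetic and blue points for control libraries of at least 20 cells of the cluster and a bar for the median. Spp1 reaches 8501 in neutrophil cluster 3, Fabp5 reaches 3976 in dendritic cluster 14, and Gpnmb is lowest of the macrophage clusters in cluster 11.

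Lpl was the gene with the lowest diabetic to control estimate in every class tested, although edgeR with the filter on low counts made no call. Its log2 fold change was -1.30 (SE 0.28, adjusted p = 0.496) in monocyte-like, -1.34 (SE 0.22, adjusted p = 0.199) in neutrophil-like and -1.48 (SE 0.31, adjusted p = 0.394) in dendritic-like cells. In each of these classes 0 of 10 genes passed, where 0% of all genes were called in monocyte-like and neutrophil-like cells and 0.0109% were called lower in dendritic-like cells, while 614, 817 and 565 genes had an unadjusted p below 0.05. DESeq2 called Lpl in the 3 classes, with adjusted p of 0.0129, 0.000144 and 0.0236, and it called 20, 36 and 13 genes in all. Without the filter edgeR also called Lpl in each, with adjusted p of 2.42e-08, 0.000105 and 1.53e-08. On day 5, 6 of 10 genes were at least 2-fold lower in diabetic monocyte-like cells, against 3.99% of all genes. C1qa, C1qb and C1qc summed to 1000.3 CPM in the 397 diabetic and to 2855 CPM in the 66 control cells, and the ratio to this sum was 0.177 and 0.163 for Trem2, 0.144 and 0.107 for Gpnmb, 0.158 and 0.143 for Lipa and 0.0539 and 0.109 for Lpl. The part of macrophage RNA in the day 5 difference was not tested. On day 3 Gpnmb, Fabp4, Abca1 and Spp1 were at least 2-fold higher in diabetic monocyte-like cells, 4 of 10 against 4.82%, but the class held different clusters in each group. Cluster 1 gave 535 of 586 diabetic and 144 of 398 control cells, and cluster 15, where Spp1 stood at 129 CPM and Gpnmb at 26.4 CPM in control day 3, gave 18 and 221. Within cluster 1, 0 of 10 genes were at least 2-fold higher on day 3, against 4.76% of all genes, and Spp1 stood at 1714 and 1556 CPM. On day 3, 4 of 10 genes were lower there in diabetic cells, against 47.8% of all genes. Lpl, Trem2 and Cd36 were lower beyond counting error, at ratios of 0.510, 0.683 and 0.580. Lpl stood at 6.01 to 135 CPM in dendritic-like and 4.44 to 759.5 CPM in neutrophil-like cells, against 14.5 to 172 CPM in T cell-like cells, and its ratio to the sum of the C1q genes was 0.0422 to 0.145, 0.0392 to 0.248 and 0.0228 to 0.203, with 0.0209 to 0.205 in macrophage-like cells. These ranges overlap, and the part of RNA from other cells in the Lpl estimates of these classes was not tested. Classes of a library come from the same mice and preparation, so that these estimates are not independent of each other.

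Summed over all cells of a library, the levels of the 10 genes depend on the share of each class as well as on the level within it. The macrophage-like share was 3.41%, 16.8%, 10.2% and 25.9% in diabetic and 3.54%, 14.3%, 46.3% and 50.2% in control libraries, and on day 5 a macrophage-like cell held a mean of 2.65 Lpl UMIs in the diabetic and 8.71 in the control library. The unnamed cluster, with a median of 1064 UMIs per cell and macrophage as its nearest marker list at a mean log2 fold of only 0.26, had 0 macrophage and 2 dendritic markers among its top 10 genes. It made up 1.93% to 24.4% of a library, and with it the share would be 26.7% and 33.4% on day 3 and 18.0% and 70.7% on day 5 in diabetic and control libraries. Macrophage-like cells held from 0.741% of the Gpnmb UMIs of diabetic day 1 to 81.8% of the Apoe UMIs of control day 5. In these sums Lpl stood at 44.5, 130.5, 118 and 284 CPM in diabetic and at 149.9, 202, 709.5 and 657 CPM in control wounds, which was 3.37-fold, 1.55-fold, 6.02-fold and 2.31-fold lower. On day 5, 8 of the 10 genes were at least 2-fold lower in diabetic wounds, against 16.5% of all genes. This held for 2 genes on day 1 (0.808% of all genes), 0 on day 3 (3.68%) and 1 on day 7 (3.28%). Gpnmb was at least 2-fold higher on day 3, where 3.10% of all genes were. Over the 4 days edgeR called 0 of 10 in these sums and 0% of all genes in either direction, with Lpl at -1.49 (SE 0.30, adjusted p = 0.4395). DESeq2 called 89 genes here and 1458 had an unadjusted edgeR p below 0.05, and the DESeq2 adjusted p of Lpl was 0.00102.

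With every cell thinned to 1000 UMIs, Trem2 was found in 8.33%, 26.8%, 25.4% and 32.2% of diabetic and in 16.2%, 40.0%, 51.8% and 39.3% of control macrophage-like cells, against 1.82% to 14.1% of T cell-like cells. The exact 95% intervals of the groups did not overlap on days 3, 5 and 7, and on day 1 they were 4.07% to 14.8% and 10.1% to 24.2%. These intervals count cells of 1 pooled library for each group and day as separate draws and leave out the spread between mice. Lpl was found in 7.50%, 10.2%, 9.92% and 21.2% of diabetic and in 15.4%, 15.7%, 29.3% and 30.8% of control cells, against 0.990% to 11.5% of T cell-like cells. Without thinning the shares were 16.7% to 69.0% and 32.1% to 90.6% for Trem2 and 8.02% to 50.5% and 23.7% to 72.9% for Lpl. Of the 10 genes, 5 or more were found together in 0.833%, 13.6%, 11.5% and 22.9% of diabetic and in 5.13%, 14.9%, 45.9% and 31.9% of control macrophage-like cells after thinning, with 0% to 4.64% in T cell-like cells. Thinning left out 371 of 7137 macrophage-like cells, 42 and 39 of them on day 1. The median depth of the macrophage-like and T cell-like cells was 8633 and 3934.5 UMIs.

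Other genes of lipid handling were described by list. Of 5 lists with 73 genes in all, 65 were tested in macrophage-like cells and 0 passed. Of 8 tested uptake receptors other than Cd36, 4 had an estimate below 0, among them Stab1, a scavenger receptor of resident macrophages, at -0.58 (SE 0.11, adjusted p = 0.224), while Olr1, a receptor of oxidised lipoproteins, stood at 0.88 (SE 0.22, adjusted p = 0.241). Of 14 genes of lysosomal lipid handling and cholesterol efflux, 10 were below 0, with the phospholipid transfer protein Pltp at -0.38 and the saposin precursor Psap at -0.26. Of 15 genes of lipid droplets and fatty acid use 10 were below 0, with the droplet coat protein Plin2 at -0.38 and the nuclear receptor Ppard at 0.43. Cholesterol synthesis held 4 of 12 below 0, with its regulator Srebf2 at 0.34 and the sterol enzyme Nsdhl at -0.40. Other genes of lipid-associated macrophages held 12 of 16 below 0, with the protease Ctsd at -0.58 and the kinase Syk at 0.39. The list medians were 0.0021, -0.036, -0.15, 0.10 and -0.12 in this order, against -0.0078 over all genes, of which 51.1% were below 0.

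With the day, Soat1, which esterifies cholesterol, rose by 0.17 per day (SE 0.029, edgeR adjusted p = 0.0436) and Plin2, which coats lipid droplets, by 0.17 per day (SE 0.025, edgeR adjusted p = 0.0301). These were 1 of 14 and 1 of 15 genes of their lists, against 0.353% of all genes called higher and 0.0191% called lower, and 0 of 8 uptake receptors, 0 of 12 cholesterol synthesis genes and 0 of 16 other genes passed.

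The pattern over libraries and classes told the genes apart. Over 63 sums of a library and class with at least 20 cells, log2(CPM + 20) of Trem2 was most like that of Ms4a7 (Pearson r = 0.95), C1qc (0.93) and C1qa (0.92), and Apoe was most like C1qb (0.91), C1qa (0.90) and C1qc (0.90). These are macrophage markers. Lipa was most like Trem2 (0.92), Gdf15 (0.89) and Mertk (0.89), Lpl like Myof (0.90), Slc27a1 (0.89) and Slc37a2 (0.88), and Cd36 like Ctsl (0.92), Ctsb (0.88) and Pf4 (0.88). Abca1 was most like Plin2 (0.93), Lhfpl2 (0.93) and Hmox1 (0.91), Gpnmb like Gdpd1 (0.86), Trem2 (0.86) and Ctsb (0.85), and Fabp5 like Sh3glb1 (0.87), Cttnbp2nl (0.83) and Cst3 (0.82). Spp1 went with Slc11a1 (0.87), Rab20 (0.86) and Clec5a (0.84), genes of activated myeloid cells among them, and Fabp4 with Pam (0.75), Sparc (0.74) and Ccdc152 (0.74). Among the 10 genes, the correlation was highest for Trem2 and Lipa (0.92) and lowest for Fabp5 and Spp1 (0.12). Sums of a library share its cells and depth, and these values are a description.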

How the data were processed

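Single-cell RNA-seq of CD45+ wound cells was analysed from 8 count tables, 1 for each library. The unit was counts, deposited by the authors as raw UMIs per gene and cell with no normalization. Submitters' notes name fastp 0.20.1 and mm9, while the study's methods name an Ensembl release of the mouse genome, and the tables hold gene symbols without coordinates. The 10 genes and the gene lists were chosen with earlier results of these data known. Cells needed more than 200 detected genes and a mitochondrial share below 20%, and 13 mitochondrial genes were left out. Depth was 19236522 to 33842509 UMIs per library. Barcodes had been renamed, so that barcodes shared between libraries could not be counted, and 0 cells had identical counts in different libraries.

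Counts per cell were scaled to 10000, log-transformed and clustered with scanpy 1.11.5 (2000 variable genes, 10 components, 30 neighbours, Leiden resolution 0.8) after 83 genes, the 10 genes and the lists among them, were left out. Clusters were named from marker lists. Scrublet marked 68 cells (0.193%), too few to count as a working doublet call, and doublets were kept. UMIs were summed per library and class of at least 20 cells. Ratios of a day have exact 95% conditional binomial intervals, levels exact Poisson and shares exact binomial intervals, which cover counting error only. Genes with at least 50 UMIs over both libraries entered the 2-fold counts.

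Sums were compared with edgeR 4.0.16 in R 4.3.3 (quasi-likelihood F test, two-sided, TMM, filterByExpr, day as a block, Benjamini-Hochberg adjustment over all genes, threshold 0.05). The libraries of a day were paired by day only, as the labels give them. DESeq2 1.42.0, other size factors, no filter, no block, each day left out, other clusterings and other cell filters were tried. On simulated data for the macrophage-like comparison, with 200 of 10486 genes changed by a log2 of 2, 177 (88.5%) were recovered with 9 false calls. The simulated libraries shared the same mean profile on all days and a single dispersion for all genes. The share recovered therefore does not give the power for smaller differences in data with effects of the day. All 10 genes were named in each comparison, and of each list those past the threshold or, with none, the 2 genes with the smallest p. For each of the 10 genes the 3 genes of highest Pearson correlation were named. Gene coordinates are from the GENCODE annotation of GRCm38 and promoters from RefSeq.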

Additional observations from a re-analysis of the deposited data

Results flagged for a closer look

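For 6 of the 10 genes the libraries of different days lay on opposite sides in macrophage-like cells, beyond counting error, and in each of these the diabetic library was the lower on day 5. Of the 9860 genes with at least 50 UMIs on 2 or more days, 15.6% did so. Genes with more UMIs have narrower intervals and meet this rule more easily, and the share was not matched for UMIs. The log2 ratio of diabetic to control was 0.840 on day 3 and -1.51 on day 5 for Gpnmb, and 0.832 on day 3 and -1.81 on day 5 for Fabp4. Apoe stood at 0.632 on day 1 and -0.648 on day 5, and Fabp5 at 0.281 on day 7 and -1.60 on day 5. Abca1 stood at 0.304 on day 3 and -0.140 on day 5, and Spp1 at 0.0537 on day 3 and -1.10 on day 5. The direction of Abca1 changed after the T cell-like level was subtracted, to -0.058 on day 3 and 0.42 on day 5, and on day 5 also with the 10 genes used in clustering (0.13), with cells named singly (0.063), with osteoclast-like cells (0.077) and with the T cell-like UMIs per cell subtracted (0.12). That of Spp1 on day 3 changed after the subtraction (-0.39, or -0.20 by UMIs per cell), at resolution 1.6 (-0.0089) and with every cell weighted equally (-0.063). With 1 library for each group and day, the difference between days was not tested.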

How the results depend on the processing

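The estimates of Lpl, Lipa, Trem2, Cd36, Spp1 and Fabp5 in macrophage-like cells stayed below 0 in all 17 settings, while most counts of genes called depended on the tool. The cause was not tested. With DESeq2 the genes called numbered 266 for the day slope (39 with edgeR), 106 in macrophage-like cells (1), 89 in all cells (0), 13 in dendritic-like (1), 20 in monocyte-like (0) and 36 in neutrophil-like cells (0), and 1 for the difference in slope (0). Without the filter on low counts they numbered 379, 372, 1, 120, 116, 120 and 28 in this order. Without the replicate block of day, 0 genes were called in macrophage-like and in dendritic-like cells, and Abca1 at -0.061 and Spp1 at -0.31 changed sign in neutrophil-like cells. In macrophage-like cells 0 genes were called with cells named singly, with the 10 genes used in clustering, with osteoclast-like cells included and at resolution 1.6, and 2 in cluster 4 alone and 2 in cluster 5 alone, which were chosen after seeing the data. With each day left out the counts ran from 13 to 83 for the day slope, 0 to 10 in macrophage-like, 0 to 1 in all, 1 to 4 in dendritic-like, 0 to 17 in monocyte-like and 0 to 1 in neutrophil-like cells, and 0 to 1 for the difference in slope. The count of genes at least 2-fold lower was 2 on day 1 at resolution 1.6 and with cells named singly, 1 on day 3 with cells named singly, and on day 5 was 1 with the 10 genes used in clustering and 0 with cells named singly. Estimates over the days changed sign in macrophage-like cells for Apoe (0.043 with osteoclast-like cells, 0.18 with the 10 genes used in clustering, 0.15 singly), Fabp4 (0.19 singly) and Gpnmb (0.18 singly), and in monocyte-like cells for Apoe (0.022 without the filter). Ratios of a day changed sign after the T cell-like level was subtracted for Abca1 on day 3 (-0.058) and day 5 (0.42), Apoe (0.13), Cd36 (0.038), Fabp4 (0.22), Gpnmb (0.11) and Trem2 (0.0045) on day 7, and Spp1 on day 3 (-0.39), and with its UMIs per cell subtracted, chosen after seeing the data, for Abca1 on day 5 (0.12) and Spp1 on day 3 (-0.20). They did so with cells named singly for Abca1 on day 5 (0.063) and for Cd36 (0.056) and Fabp4 (0.054) on day 7, for Abca1 on day 5 with the 10 genes used in clustering (0.13) and with osteoclast-like cells (0.077), for Abca1 on day 7 (-0.069) and Spp1 on day 3 (-0.063) with every cell weighted equally, and at resolution 1.6 for Gpnmb on day 7 (0.064) and Spp1 on day 3 (-0.0089). With each day left out, the range held both signs in macrophage-like cells for Abca1 (-0.0090 to 0.14), Apoe (-0.27 to 0.13), Fabp4 (-0.76 to 0.24) and Gpnmb (-0.76 to 0.21), in all cells for Fabp5 (-0.38 to 0.014) and Gpnmb (-0.77 to 0.47), in dendritic-like cells for Abca1 (-0.64 to 0.082), Fabp5 (-0.59 to 0.19) and Gpnmb (-1.49 to 0.37), in monocyte-like cells for Abca1 (-0.11 to 0.41), Apoe (-0.29 to 0.28), Cd36 (-0.58 to 0.11), Fabp5 (-0.61 to 0.040), Gpnmb (-0.075 to 1.01) and Spp1 (-0.52 to 0.20), and in neutrophil-like cells for Abca1 (-0.22 to 0.40), Apoe (-0.57 to 0.12), Fabp4 (-0.75 to 0.14), Fabp5 (-0.33 to 0.16), Gpnmb (-0.57 to 0.22) and Spp1 (-0.47 to 0.63). It did so for the slope of Spp1 (-0.035 to 0.24) and for the difference in slope of Apoe (-0.31 to 0.0013), Cd36 (-0.036 to 0.18), Fabp5 (-0.16 to 0.17), Gpnmb (-0.35 to 0.0045) and Spp1 (-0.089 to 0.039). Within monocyte cluster 1, chosen after seeing the data, 0 genes were at least 2-fold higher on day 3 where 4 were in the whole class, and the class held different clusters in each group. On day 1 the macrophage-like class held 162 and 156 cells and Fabp4 rested on 11 and 8 UMIs.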
